A study of Mus musculus with 6 samples.

Results

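Thyroid hormone acts on the heart through a chain of transporters, deiodinases, nuclear receptors and cofactors, and 8 genes of that chain are described here, chosen by name among the 54532 genes of 1 deposited expression table. They are the receptors Thra and Thrb, the deiodinases Dio2 and Dio3, the transporter Slc16a10, the corepressor Ncor1 and the coactivators Ncoa1 and Ncoa2. All 8 were found in the table, and 6 of them were among the 12431 genes with at least 1 FPKM (expression per kilobase of gene and per a library scale set by the authors) in at least 3 samples, which were the genes tested. Thrb and Dio3 did not pass that filter.

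Hearts of 6 wild-type mice of the outbred ICR stock were profiled at day 4, as the sample titles give it. Control hearts (n = 3) came from offspring whose mothers were given citric acid by intraperitoneal injection in pregnancy. STZ hearts (n = 3) came from offspring whose mothers were given STZ by the same route. STZ is read here as streptozotocin, which destroys pancreatic beta cells and is used to model diabetes in pregnancy. Nothing in the labels ties a heart to a litter, so the p-values measure only the spread between these samples, which may be technical.

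The hormone enters cells through transporters. The activating deiodinase encoded by Dio2 converts thyroxine into the active hormone, and the inactivating deiodinase encoded by Dio3 removes it. The receptors bind DNA as partners of RXR proteins: without hormone they hold the NCoR corepressor complex on their targets, and with hormone they exchange it for coactivators. Around birth circulating hormone rises, and in the rodent heart it drives the exchange of the fetal myosin Myh7 for the adult myosin Myh6. In the same period the slow skeletal troponin I gene Tnni1 gives way to the cardiac gene Tnni3.

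Control 2 stood apart from the other libraries. The brown fat gene Ucp1, which encodes the uncoupling protein of that tissue, was at 213 FPKM in control 2 and at 0 in the other 5 libraries, and the fat cell gene Adipoq was at 20.4 FPKM against 0. All 4 brown fat markers, all 6 thymus markers and all 8 atrial markers had their highest value in control 2. So did 7 of 8 fibroblast, 7 of 8 macrophage, 6 of 7 epicardial and all 5 erythroid markers found. Summed over each list, brown fat markers were at 310.0 FPKM there and at 18.4 to 23.4 in the others, thymus markers at 89.3 against 0.265 to 2.13, and atrial markers at 6330 against 47.3 to 130. In the other 5 libraries the brown fat sum was almost all Cidea, at 18.4 to 23.4 FPKM. The 9 cardiomyocyte markers were each lowest in control 2 (3355 FPKM summed, against 5492 to 6871), and their log2 differences were positive at 9 of 9 with a median of 0.42, or at 7 of 9 with a median of 0.029 without control 2. Thyroid gland markers were low throughout, at 2.48 FPKM summed in control 2 and 0.756 to 1.22 in the others. Most of this was Tg, at 1.73 FPKM in control 2 and 0.555 to 0.848 in the others. Nkx2-1 was listed at 0 in every library. Because bulk RNA was measured, fewer cells of a type and less RNA per cell cannot be told apart. The STZ minus control medians of the other marker lists, with all libraries and without control 2, were -0.0011 and -0.071 for endothelium (7 genes), -0.0058 and -0.085 for smooth muscle and pericytes (5 genes), -0.20 and 0.041 for macrophages (8 genes), -0.86 and -0.40 for epicardium (7 genes) and -0.95 and -0.46 for erythroid cells (4 genes), on the log2(FPKM + 1) scale. No gene of these lists was called. Results are therefore given with and without control 2.

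**Figure D1:**
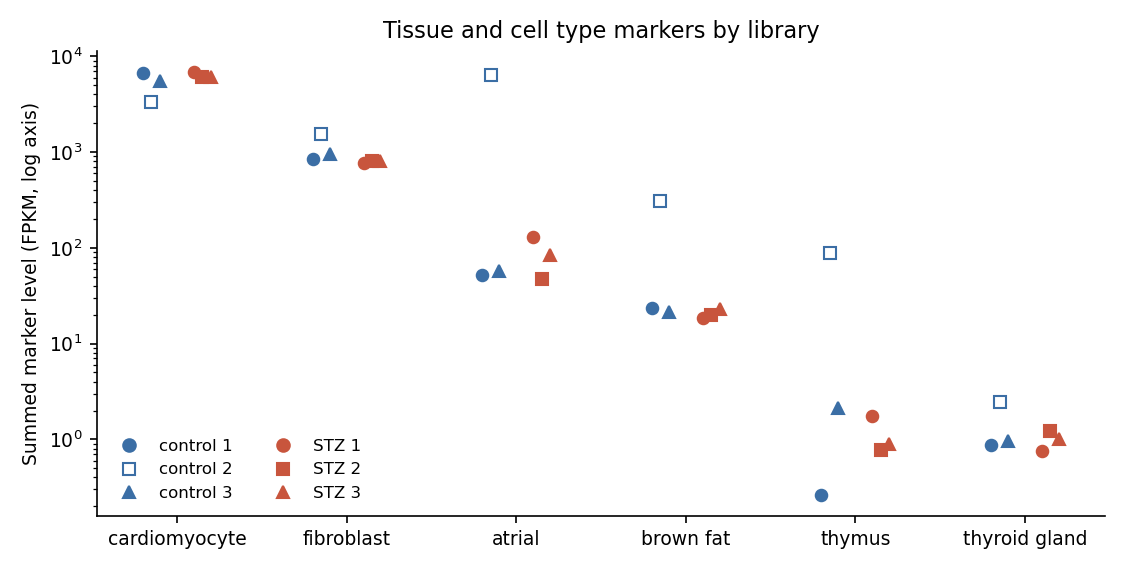
Summed FPKM of marker genes (log axis) for 6 tissue or cell type lists, 1 point per library, control in blue and STZ in red, with control 2 as the open square. Control 2 lies above the other 5 libraries for fibroblast, atrial, brown fat, thymus and thyroid gland markers and below them for cardiomyocyte markers.

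Among the 8 genes, 4 had group values that did not overlap, and none passed the test across all genes. Thra and Ncoa2 were higher in every STZ heart than in any control heart, and Thrb and Dio2 were lower in every STZ heart than in any control heart. Over all 12431 genes tested, groups did not overlap with STZ higher at 4.92% and with STZ lower at 3.62%. Of the 15055 genes above 0 that did not pass the filter, where Thrb belongs, 3.81% did not overlap with STZ lower. These include genes at 0 in a control, which cannot be lower in STZ hearts. Thrb had reads in every library, so the share is not a like comparison for it. Without control 2 the same 4 genes still had non-overlapping groups, where 9.16% of genes tested did not overlap with STZ higher and 8.55% with STZ lower, and 6.43% of those under the filter with STZ lower. The limma test called 0.0241% of genes at a Benjamini-Hochberg (BH) adjusted p under 0.05, which is 3 genes and none of the 8.

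**Figure D2:**
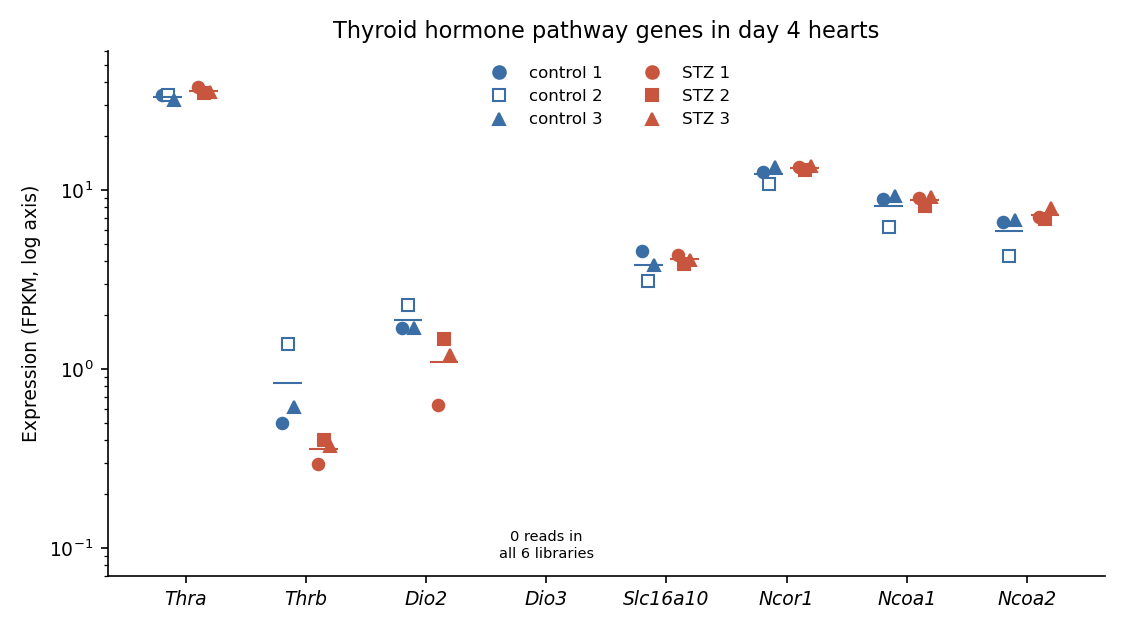
FPKM of each gene (log axis) in the 3 control hearts (blue) and the 3 STZ hearts (red), with short lines at the group means and control 2 as the open square. Thra stands highest, at 31.7 to 37.7 FPKM, Dio3 had 0 reads in every library, and the STZ points of Thrb and Dio2 lie below their control points.

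By level per gene length, Thra ranked first, followed by Ncor1, Ncoa1, Ncoa2, Slc16a10, Dio2, Thrb and Dio3. Each gene was above the next in 6 of 6 libraries. Across the 6 libraries, however, the ranges of Ncoa1 and Ncoa2, of Ncoa2 and Slc16a10, and of Dio2 and Thrb overlapped. The 6-library means were 34.6 ± 1.94 FPKM for Thra, 12.8 ± 1.05 for Ncor1, 8.45 ± 1.17 for Ncoa1, 6.58 ± 1.24 for Ncoa2, 3.95 ± 0.508 for Slc16a10, 1.49 ± 0.551 for Dio2 and 0.593 ± 0.399 for Thrb (SD over 6 libraries). On the authors' scale, control 2 held the highest value of Thrb and Dio2 and the lowest of Slc16a10, Ncor1, Ncoa1 and Ncoa2. Over all genes tested it was the highest library at 27.4% and the lowest at 41.7%. When the values were rescaled to the recovered read totals, Ncor1 in control 2 was at 13.1 FPKM, above control 1 at 12.5. Thra was then highest in control 2, at 41.1 FPKM.

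Thra (ENSMUSG00000058756, GRCm38 chromosome 11, 98740638 to 98769006, plus strand) encodes the receptor that predominates in heart muscle. It was at 34.0, 34.1 and 31.7 FPKM in controls 1 to 3 and at 37.7, 34.8 and 35.4 FPKM in STZ hearts 1 to 3. The lowest STZ heart thus lay just above the highest control. The group means were 33.3 ± 1.34 and 35.9 ± 1.52 FPKM (SD, n = 3 each), a difference of 0.11 on the log2(FPKM + 1) scale with a 95% interval of -0.14 to 0.35 (SE 0.103; limma, BH-adjusted p = 0.922). Without control 2 the difference in Thra was 0.13. When the values were rescaled to the recovered read totals, control 2 moved to 41.1 FPKM and the groups overlapped, with a difference of 0.042. The Thra value sums 9 annotated transcripts, which include a hormone-binding and a non-binding receptor product, so the balance of these cannot be read from it. Of its 4614 exon bases, 263 (5.70%) are shared with Nr1d1, a clock gene on the opposite strand at 5.01 to 7.98 FPKM, and since no strand setting is stated, reads of that stretch may belong to either gene.

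Thrb (ENSMUSG00000021779, chromosome 14, 17660261 to 18038090, plus strand) encodes the beta receptor, known as the main form in liver. It was at 0.497, 1.38 and 0.617 FPKM in controls 1 to 3, which are 62, 218 and 80 reads, and at 0.296, 0.402 and 0.371 FPKM in STZ hearts 1 to 3, which are 39, 50 and 51 reads. All 3 STZ hearts were below all 3 controls, and control 2 was more than the other controls combined. The means were 0.830 ± 0.477 and 0.356 ± 0.0544 FPKM (SD, n = 3 each), so STZ hearts held 0.429 times the control mean, and 0.640 times that of controls 1 and 3. The log2 difference was -0.40 (exact two-sided permutation p = 0.1, the smallest that 3 against 3 samples allow), and -0.20 without control 2, where the groups still did not overlap. In a fit without the filter on low values its 95% interval was -0.87 to 0.063 (limma, BH-adjusted p = 0.868).

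Receptor balance was read within each library, where the library scale cancels. Thra made up 96.1% to 99.2% of the summed FPKM of both receptor genes. Its value includes transcripts of a non-binding product, so this share is not a balance of hormone-binding receptors. The log2 ratio of Thra to Thrb was 6.10, 4.63 and 5.68 in controls 1 to 3 and 6.99, 6.44 and 6.57 in STZ hearts 1 to 3. Every STZ heart lay above every control, with means of 6.67 ± 0.289 against 5.47 ± 0.756 (SD, n = 3 each). This separation was fixed by Thra being higher and Thrb lower in every STZ heart. Neither it nor its permutation p is therefore a further result. The difference was 1.20, and 0.78 without control 2 (exact two-sided permutation p = 0.1, and 0.133 after BH adjustment over the 4 ratios tested).

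Dio2 (ENSMUSG00000007682, chromosome 12, 90724552 to 90738438, minus strand) was at 1.70, 2.27 and 1.70 FPKM in controls 1 to 3, or 166, 282 and 173 reads. In STZ hearts 1 to 3 it was at 0.628, 1.47 and 1.20 FPKM, or 65, 144 and 129 reads. STZ 1 was the lowest of the 6, and all 3 STZ hearts were below all controls. The means were 1.89 ± 0.329 and 1.099 ± 0.431 FPKM (SD, n = 3 each), a ratio of 0.583, or 0.648 against controls 1 and 3 alone. Its log2 difference of -0.48 had a 95% interval of -0.92 to -0.031 (SE 0.187; limma, unadjusted p = 0.0392, BH-adjusted p = 0.922). An unadjusted p under 0.05 with STZ lower was reached by 1.42% of genes tested. The difference in Dio2 was -0.38 without control 2 and -0.30 without STZ 1, which moved it by more than 1.5 times. It was -0.79 with a pseudocount of 0.1 and -0.93 with voom on the recovered reads.

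Brown fat is a tissue in which Dio2 is known to be active, and control 2, which alone held Ucp1 and Adipoq, had the highest Dio2 value. Controls 1 and 3 were both at 1.70 FPKM of Dio2 with Ucp1 and Adipoq at 0, and without control 2 the groups did not overlap. The part of brown fat transcripts in the Dio2 difference was not tested. The genes whose values across the 6 libraries were closest to those of Dio2 were Aspn, encoding the matrix proteoglycan asporin, and Gpc6, a cell-surface glypican. Their root mean square distances from Dio2, in log2 units after centring each gene, were 0.072 and 0.11, against a median of 0.38 over the 6695 genes compared. Aspn was at 61.1, 70.4 and 63.8 FPKM in controls 1 to 3 and at 37.3, 54.1 and 54.8 FPKM in STZ hearts 1 to 3. STZ 1 was thus lowest for Aspn as for Dio2. The fibroblast marker list had a negative difference at 8 of 8 members, with a median of -0.41, and -0.19 with 8 of 8 negative without control 2. Its summed level was 838, 1558 and 965 FPKM in controls 1 to 3 and 766 to 808 FPKM in STZ hearts. Of its 8 markers, 7 were highest in control 2. The part of fibroblast content in the Dio2 difference was not tested.

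Dio3 (ENSMUSG00000075707, chromosome 12, 110279068 to 110281097, plus strand) had 0 reads in each of the 6 libraries. Taking 3 reads as the limit that a count of 0 allows, its level was at most 0.0691 to 0.0879 FPKM, depending on the library, which covers counting error only. Dio1, the remaining deiodinase gene, was at 0.0475 FPKM in control 2 and listed at 0 in the other 5 libraries. Crym, which encodes a cytosolic protein that binds the hormone, was at 0.634 FPKM in control 2 and at 0 to 0.0877 FPKM in the others. No difference in inactivating deiodinase transcript was detectable at this depth.

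The windows before the RefSeq starts of Thrb, Dio2 and Dio3 are shown because these genes had the lowest levels of the 8 and, for Thrb and Dio2, non-overlapping groups. Each is the 250 bases before a RefSeq start on GRCm38.p6, read 5′ to 3′ along the gene. Thrb has 2 such starts, at the windows chr14:17660710-17660959 and chr14:17981394-17981643 on the plus strand, and the gene value does not separate them. The windows of Dio2 (chr12:90739039-90739288, minus strand) and Dio3 (chr12:110278980-110279229, plus strand) follow. The RefSeq starts are not the ends of the gene positions given above. Both Thrb windows lie inside that gene's position, the Dio3 window reaches into its gene, and a gap separates the Dio2 window from its gene. Motif positions are counted from the RefSeq starts. Capitals mark 3 motifs searched on both strands: AGGTCA, the hexamer that thyroid hormone receptors and other nuclear receptors bind, TATAAA, the TATA box, and TGACGTCA, the cyclic AMP response element.
Thrb first start: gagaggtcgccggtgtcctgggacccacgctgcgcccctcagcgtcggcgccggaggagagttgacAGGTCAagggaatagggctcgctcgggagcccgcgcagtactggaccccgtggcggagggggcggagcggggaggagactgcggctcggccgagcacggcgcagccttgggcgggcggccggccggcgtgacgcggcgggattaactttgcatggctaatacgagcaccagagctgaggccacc
Thrb second start: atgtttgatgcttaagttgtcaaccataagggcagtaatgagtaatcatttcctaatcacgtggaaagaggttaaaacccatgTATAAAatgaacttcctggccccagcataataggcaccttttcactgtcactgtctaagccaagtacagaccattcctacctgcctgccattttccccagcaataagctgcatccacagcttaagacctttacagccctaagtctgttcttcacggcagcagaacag
Dio2: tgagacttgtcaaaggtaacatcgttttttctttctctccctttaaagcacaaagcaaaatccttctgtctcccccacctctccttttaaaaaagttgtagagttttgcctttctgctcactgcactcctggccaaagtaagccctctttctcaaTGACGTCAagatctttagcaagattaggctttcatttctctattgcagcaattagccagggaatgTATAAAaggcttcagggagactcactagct
Dio3: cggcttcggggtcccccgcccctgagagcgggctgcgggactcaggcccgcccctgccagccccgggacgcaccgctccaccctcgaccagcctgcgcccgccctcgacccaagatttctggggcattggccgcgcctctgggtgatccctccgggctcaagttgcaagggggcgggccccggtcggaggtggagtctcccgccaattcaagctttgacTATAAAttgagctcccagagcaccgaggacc

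The receptor hexamer AGGTCA was found at -184 to -179 from the first Thrb start. Among 32851 RefSeq promoter windows of 300 bases (250 before and 50 after a start), 16.3% held it on either strand. The second Thrb window held no AGGTCA but a TATAAA at -167 to -162. Dio2 had TATAAA at -30 to -25 and the palindrome TGACGTCA at -95 to -88, which reads the same on both strands. TATAAA occurred in 13.6% and TGACGTCA in 1.79% of all windows. Dio3 had TATAAA at -31 to -26. Over these 300 bases the windows also differed in base composition, with GC contents of 72.7% and 46.0% for the Thrb starts, 44.7% for Dio2 and 69.0% for Dio3, against a median of 52.7%. RefSeq windows matched 6 of the 8 genes, and Thrb was the only one of these 6 with an AGGTCA. A spaced pair, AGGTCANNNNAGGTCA, was in none of their windows and in 0.0152% of all windows. Among the hormone-induced heart genes listed further on, 3 of the 14 with a window held AGGTCA (Hcn2, Ryr2 and Ucp3), and none of 5 hormone-repressed ones did. These matches are letters in a window and do not show binding.

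Slc16a10 (ENSMUSG00000019838, chromosome 10, 40033532 to 40142258, minus strand) encodes a transporter of aromatic amino acids and thyroid hormone. It was at 4.54, 3.08 and 3.81 FPKM in controls 1 to 3 and at 4.34, 3.87 and 4.07 FPKM in STZ hearts 1 to 3. The STZ values lay inside the control range. The means of Slc16a10 were 3.81 ± 0.727 and 4.09 ± 0.238 FPKM (SD, n = 3 each), with a log2 difference of 0.093 and a 95% interval of -0.23 to 0.41 (limma, BH-adjusted p = 0.922). Without control 2, the lowest library, the difference turned to -0.020.

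Of the 9 genes in the transporter list, 4 passed the filter, and none was called. Slc7a5 and Slc3a2, the chains of an amino acid exchanger that also carries the hormone, were at 7.48 to 8.86 and 7.55 to 12.5 FPKM in control and 5.92 to 9.64 and 6.97 to 8.63 FPKM in STZ hearts. The list had 1 positive and 3 negative differences, with a median of -0.046 against 0.031 over all genes tested. Without control 2 it had 2 of each sign and a median of -0.0084, against -0.0016 over all genes tested.

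Ncor1 (ENSMUSG00000018501, chromosome 11, 62316426 to 62458541, minus strand) encodes the corepressor that unliganded thyroid receptors recruit. It was at 12.7, 10.8 and 13.5 FPKM in controls 1 to 3 and at 13.5, 12.9 and 13.6 FPKM in STZ hearts 1 to 3. The groups overlapped through control 3. The means of Ncor1 were 12.3 ± 1.37 and 13.3 ± 0.348 FPKM (SD, n = 3 each) and the log2 difference 0.11, with a 95% interval of -0.16 to 0.37 (limma, BH-adjusted p = 0.922). It was 0.024 without control 2, and 0.045 when the values were rescaled to the recovered read totals. All 6 genes of the corepressor list were tested and none was called, with 4 positive and 2 negative differences and a median of 0.074, or -0.0086 with 3 of each sign without control 2. Hdac3, the deacetylase of the complex, was at 16.0, 15.2 and 15.7 FPKM in controls 1 to 3. In STZ hearts 1 to 3 it was at 16.2, 17.4 and 16.6 FPKM, and the groups did not overlap on the authors' scale. For control 2 that scale was 1.21 times its recovered reads. Without control 2 the groups of Hdac3 also did not overlap. Over all genes tested, 4.92% did not overlap with STZ higher, and 9.16% without control 2. The log2 difference of Hdac3 was 0.092 (limma, BH-adjusted p = 0.922). It was 0.072 without control 2 and 0.028 when the values were rescaled to the recovered read totals.

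Ncoa1 (ENSMUSG00000020647, chromosome 12, 4247362 to 4477182, minus strand) and Ncoa2 (ENSMUSG00000005886, chromosome 1, 13139105 to 13374083, minus strand) encode p160 coactivators that bind the hormone-loaded receptors. Ncoa1 was at 8.91, 6.19 and 9.23 FPKM in controls 1 to 3 and at 9.06, 8.17 and 9.17 FPKM in STZ hearts 1 to 3. Its STZ values lay within the control range. The log2 difference of Ncoa1 was 0.12, with a 95% interval of -0.25 to 0.49 (limma, BH-adjusted p = 0.922), and -0.040 without control 2.

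Ncoa2 was at 6.58, 4.25 and 6.77 FPKM in controls 1 to 3 and at 7.02, 6.92 and 7.95 FPKM in STZ hearts 1 to 3. All STZ values were above all control values, and control 2 was well below the other 5 libraries. The means of Ncoa2 were 5.87 ± 1.402 and 7.30 ± 0.567 FPKM (SD, n = 3 each), a log2 difference of 0.29 with a 95% interval of -0.11 to 0.69 (limma, BH-adjusted p = 0.922). Without control 2 the difference was 0.11, and the groups still did not overlap. The genes closest to Ncoa2 across the 6 libraries were Rybp and Sspn, at distances of 0.030 and 0.033.

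**Figure D3:**
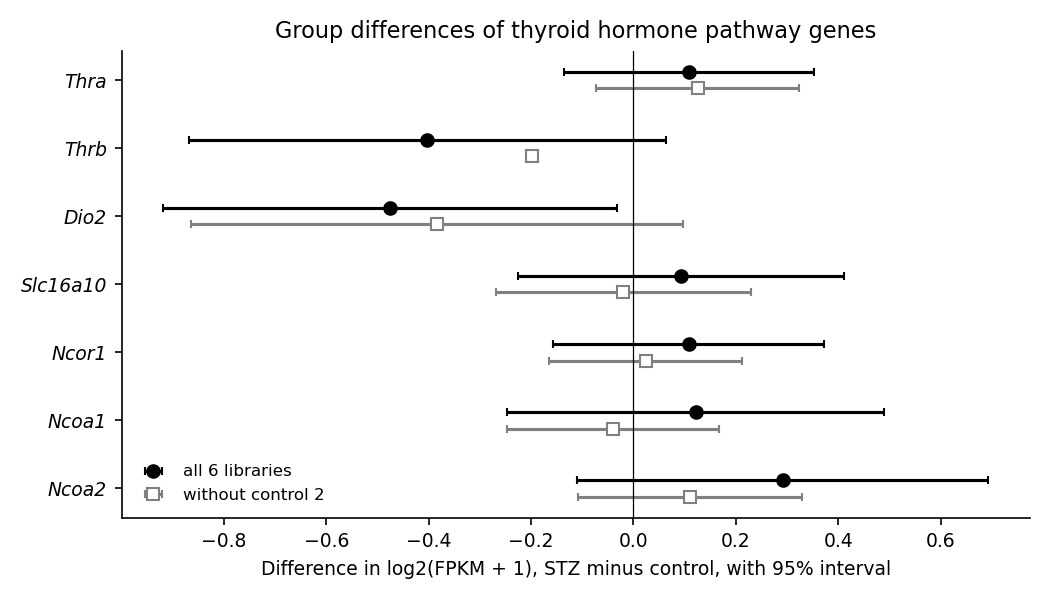
Difference in log2(FPKM + 1), STZ minus control, with 95% intervals, for the 7 genes with reads, from all 6 libraries (filled circles) and without control 2 (open squares). The Thrb interval is from the fit without a filter, and its open square has none. All intervals other than that of Dio2 with all 6 libraries include 0, and Slc16a10 and Ncoa1 turn sign without control 2.

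All 10 coactivator genes were tested, none was called, and all 10 differences were positive, with a median of 0.21. All 10 were also lowest in control 2, and without it 7 were positive and 3 negative, with a median of 0.060. Over all genes tested 57.7% of differences were positive. Ncoa3, the remaining p160 gene, was at 7.03, 5.09 and 6.87 FPKM in controls 1 to 3 and at 7.05, 7.42 and 8.20 FPKM in STZ hearts 1 to 3, and did not overlap. Over all genes tested, 4.92% did not overlap with STZ higher, and 9.16% without control 2. Ppargc1a, a coactivator of mitochondrial genes, was at 15.8, 7.65 and 22.5 FPKM and at 18.1, 22.8 and 17.8 FPKM. Med1, the Mediator subunit that docks on hormone-loaded receptors, was at 5.89 to 8.21 FPKM in control and 7.97 to 9.30 FPKM in STZ hearts. The receptor and RXR list had 3 positive and 1 negative difference among 4 tested, with a median of 0.12, or 0.085 without control 2 and 0.066 without STZ 3. Among the RXR partners, Rxra was at 12.6 to 17.2 FPKM in control and 16.8 to 17.6 FPKM in STZ hearts, Rxrb at 10.7 to 14.3 and 11.0 to 12.7, and Rxrg at 3.11 to 5.12 and 3.76 to 5.70, and the groups overlapped at each.

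Genes listed as induced or repressed by thyroid hormone in heart were examined next, since they bear on heart maturation. For the troponin I exchange, Tnni3 was placed in the induced list and Tnni1 in the repressed list. Of 18 induced genes, 15 were tested and none was called. With all libraries 12 differences were positive and 3 negative, with a median of 0.12. Without control 2 there were 7 positive and 8 negative, with a median of -0.016. Klf9, a transcription factor gene directly induced by the receptors, was at 10.3, 9.40 and 12.5 FPKM in controls 1 to 3 and at 8.72, 12.3 and 13.2 FPKM in STZ hearts 1 to 3. Hr, another direct target, was at 0.734 to 0.946 and 0.731 to 0.837 FPKM. Both overlapped between the groups. Thrsp, a hormone-induced gene of fat synthesis, was at 11.2 FPKM in control 2 and at 1.11 to 1.63 FPKM in the other 5 libraries, and its log2 difference moved from -0.86 to -0.095 without control 2. Ucp3, encoding a mitochondrial uncoupling protein of muscle, had the largest positive difference of the induced list. It was at 5.13, 5.73 and 10.02 FPKM in controls 1 to 3 and at 9.22, 10.7 and 15.3 FPKM in STZ hearts 1 to 3. The groups overlapped through control 3, and the log2 difference of Ucp3 was 0.70 with a 95% interval of 0.066 to 1.33 (limma, BH-adjusted p = 0.922), or 0.60 without control 2.

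Of the 7 repressed genes, all were tested, none was called, and all 7 differences were positive, with a median of 0.55. All 7 were lowest in control 2, and without it 6 were positive with a median of 0.11. Over all genes tested 57.7% of differences were positive, and 6142 of 12431 without control 2. The cardiomyocyte markers, also all lowest in control 2, moved from a median of 0.42 to 0.029, and their part in the repressed list's difference was not tested. Myh7 was the 1 member of this list without overlap, at 107, 42.1 and 108 FPKM in controls 1 to 3 and at 230, 184 and 140 FPKM in STZ hearts 1 to 3, where 4.92% of all genes tested did not overlap with STZ higher (9.16% without control 2). The log2 difference of Myh7 was 1.19 with a 95% interval of 0.26 to 2.12 (limma, BH-adjusted p = 0.922), and 0.74 without control 2. Pln, encoding the inhibitor of the calcium pump, was at 487, 108 and 426 FPKM and at 499, 530.5 and 367 FPKM, and its difference went from 0.70 to 0.015 without control 2.

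**Figure D4:**
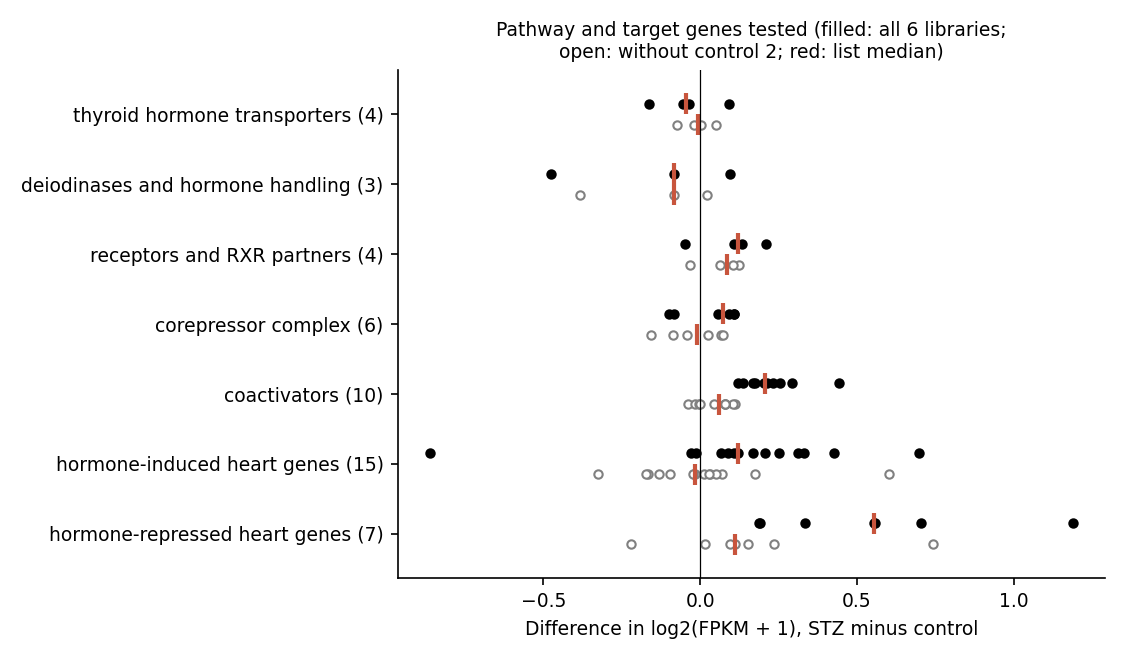
Difference in log2(FPKM + 1), STZ minus control, for each tested gene of 7 pathway and target lists (number tested in brackets), with all 6 libraries (filled) and without control 2 (open), and list medians in red. Without control 2 the medians of the coactivator and hormone-repressed lists move from 0.21 to 0.060 and from 0.55 to 0.11.

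Isoform shares within a library give the state of the myosin and troponin exchange without depending on the library scale. Myh6 made up 95.5%, 96.4% and 94.9% of the summed FPKM of Myh6 and Myh7 in controls 1 to 3 and 89.7%, 91.9% and 94.6% in STZ hearts 1 to 3. Every STZ heart was below every control, and STZ 3 only just. Myh6 itself was at 1137 to 2244 FPKM in control and 2006 to 2428 FPKM in STZ hearts. The mean Myh6 share was 95.6% ± 0.785 in control and 92.1% ± 2.42 in STZ hearts (SD, n = 3 each), a difference of -3.51 percentage points. Tnni3 made up 77.0%, 82.9% and 76.4% of Tnni1 plus Tnni3 in controls 1 to 3 and 70.8%, 73.1% and 76.0% in STZ hearts 1 to 3. Here too all STZ values were below all control values, in the same order of STZ hearts as for myosin. Tnni3 was at 671 to 955 and 819 to 944 FPKM and Tnni1 at 139 to 285 and 259 to 389 FPKM in control and STZ hearts. The mean Tnni3 share was 78.8% ± 3.54 in control and 73.3% ± 2.60 in STZ hearts, a difference of -5.46 points. Each share had an exact two-sided permutation p = 0.1, the smallest this design allows, and 0.133 after BH adjustment over the 4 ratios.

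Control 2 had the highest adult share for both pairs and also the highest atrial markers. Atrial muscle is known to carry Myh6 with little Myh7, which bears on the myosin pair only. The part of atrial transcripts in either share was not tested. Without control 2 the differences were -3.09 points for myosin and -3.42 points for troponin I, and neither pair overlapped between groups. The ratio of the calcium pump gene Atp2a2 to its inhibitor Pln, which thyroid hormone is known to raise, did not separate the groups. Its log2 value was 1.31, 2.72 and 1.43 in controls 1 to 3 and 1.32, 1.35 and 1.61 in STZ hearts 1 to 3 (exact two-sided permutation p = 0.7). The difference of -0.40 turned to 0.055 without control 2. Atp2a2 was at 712 to 1206 FPKM in control and 1119 to 1352 FPKM in STZ hearts.

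**Figure D5:**
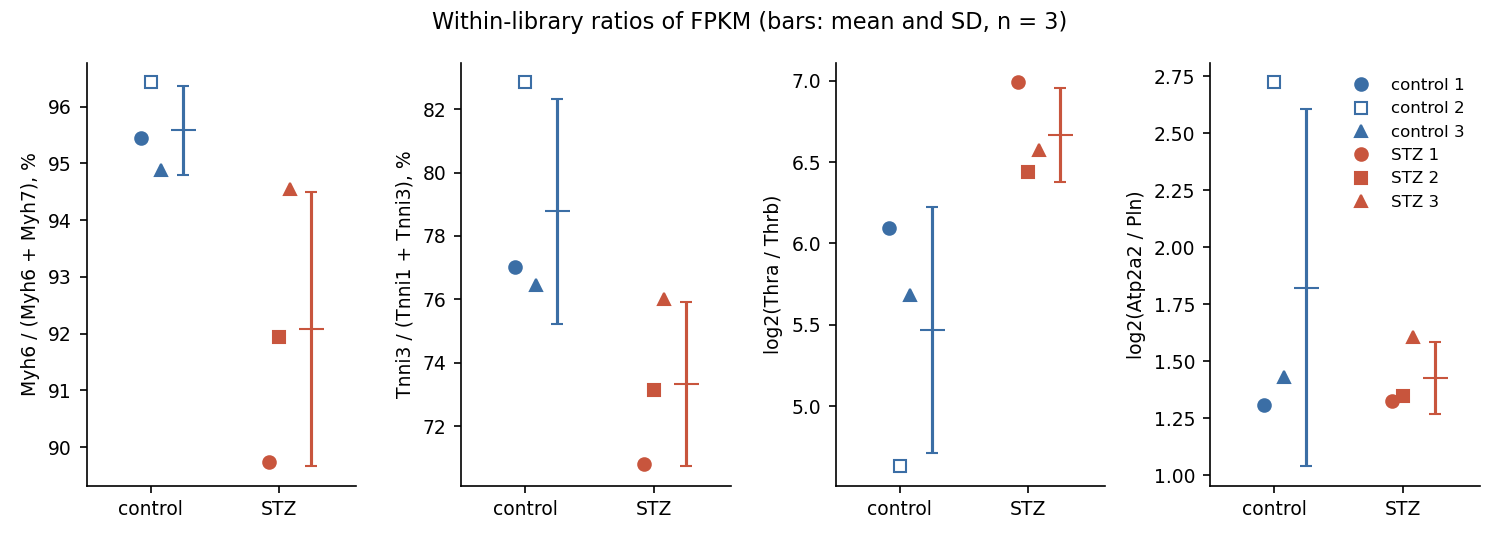
Ratios of FPKM within each library for control (blue) and STZ (red) hearts, with the mean and SD (n = 3) beside the points and control 2 as the open square; the axes do not start at 0. The STZ points lie below all controls for the Myh6 and Tnni3 shares and above them for Thra over Thrb, and overlap for Atp2a2 over Pln.

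Set side by side, STZ 1 had the lowest Myh6 share, Tnni3 share, Dio2 and Thrb values of the 6 hearts. On the authors' scale it also had the highest Thra value, but control 2 was highest when rescaled to the recovered read totals. STZ 3, with the highest adult shares among STZ hearts, had the highest Ncoa2 value but was between the other STZ hearts in Thra, Thrb and Dio2. The order of STZ hearts by adult isoform share was thus not the order by Thrb or Dio2. For Thrb, STZ 2 and STZ 3 differed little, at 50 and 51 reads. Whether the isoform shares go with Thrb or Dio2 was not tested. The remaining genes had close patterns elsewhere in the table: Slc27a4 and Mccc2 for Thra, Ankrd40 for Slc16a10, Mapk8ip3 and Zmym4 for Ncor1, and Dmac2 and Golph3 for Ncoa1, at distances of 0.011 to 0.031 over the 6 libraries. Except for Slc27a4 and Mccc2, each of these genes had its lowest value in control 2.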

How the data were processed

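The deposited table holds 1 value per gene and sample for 6 heart samples. The authors' values were read as FPKM, per kilobase of the deposited gene length and per a scale the authors set for each library; this comes from the abbreviation in the authors' name for the table and from the values, since no header states it. The build was GRCm38 (mm10), per the submitters' processing notes. For the aligner, the counting program and strand handling, the entry is the same: not given in the sources used here. Multiplied by gene length, all values (100%) came out as whole reads within 0.01 of a read once divided by a constant of the library, giving 16707268 to 18082599 reads per library. Relative to those reads, the authors' scale was 1.21 for control 2 and between 0.985 and 1.03 for the other libraries. Gene positions of all 8 members match GENCODE M21.

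Groups came from the treatment labels. Groups were compared with limma 3.58.1 (R 4.3.3), fitted to log2(FPKM + 1) with a trended prior variance, two-sided and BH-adjusted over the 12431 genes with at least 1 FPKM in at least 3 samples, at a threshold of 0.05. The pseudocount of 1 understates differences of low genes. Ratios and genes below the filter had exact permutation tests over the 20 assignments of 3 of 6 samples. No 2 libraries of a group agreed within sampling noise (chi-square per degree of freedom at least 12.8). The script was tested on simulated data. Members, gene lists and tests were chosen with earlier results of these data known. Besides the 8 members, genes were named from these lists, with the 2 genes of closest pattern (mean of at least 5 FPKM) for each tested member; some of the genes so chosen are not reported here. The lists covered transporters, deiodinases and hormone handling, receptors and RXR partners, corepressors, coactivators, and induced and repressed heart genes, with markers of cardiomyocytes, atria, fibroblasts, endothelium, smooth muscle and pericytes, macrophages, epicardium, erythroid cells, thyroid gland, thymus and brown fat. Alternatives covered the pseudocount, filter, scaling, a replicate block, voom on the recovered reads and each sample left out.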

Additional observations from a re-analysis of the deposited data

How the results depend on the processing

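Over the alternatives tried, the differences of Thra, Thrb, Dio2, Ncor1 and Ncoa2 kept their sign. The 6 members that passed the filter were called under none. Thrb was fitted across all genes only without the filter, where it was not called, and has no voom value, and Dio3, with no reads, was not fitted. Fits without 1 library gave 0.075 to 0.13 for Thra, -0.53 to -0.20 for Thrb, -0.60 to -0.30 for Dio2, 0.024 to 0.17 for Ncor1, 0.11 to 0.39 for Ncoa2, -0.020 to 0.20 for Slc16a10 and -0.040 to 0.21 for Ncoa1, the last 2 turning negative without control 2. With a pseudocount of 0.1, a scale that shrinks low values less, Thrb was at -0.92 and Dio2 at -0.79, and with voom Dio2 was at -0.93. The count of called genes was 3, and 2 to 5 without 1 library (5 without control 3), 1 with voom on recovered reads, and 0 with the replicate block (limma; an unadjusted p under 0.05 was reached by 148 genes with STZ higher and 225 with STZ lower); the cause was not tested. Same-numbered libraries did not deviate together (correlations of 0.021, -0.041 and 0.092). With 3 samples per group and control 2 standing apart, this cannot exclude a shared litter or batch.

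The differences without 1 library ranged from -4.75 to -2.34 points for the Myh6 share, from -6.80 to -3.42 points for the Tnni3 share, from 0.78 to 1.51 for log2 Thra over Thrb and from -0.65 to 0.055 for log2 Atp2a2 over Pln. List medians turned sign without control 2 for the corepressor list (range without 1 library -0.0086 to 0.095) and the hormone-induced list (-0.016 to 0.26), and without STZ 2 for the transporters (-0.10 to 0.029). Rescaling to read totals moved the median of all genes from 0.031 to -0.025. It left the corepressor median at 0.010 and that of receptors and RXR partners at 0.062, which was 0.066 without STZ 3 and 0.17 without STZ 2. The deiodinase and hormone handling list had 3 tested genes and a median of -0.085, which ranged from -0.15 (without STZ 1) to -0.028 (without control 1). Thrb rests on 39 to 218 reads and Dio2 on 65 to 282 reads per library, which limits their precision; 3 against 3 samples allow no permutation p under 0.1.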
